A study of Oncorhynchus mykiss with 6 samples.

Results

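Rows that the deposited gene table names MSTRG are loci put together from the reads outside the reference annotation, and 188 of them were abundant in skin of the back of yellow mutant rainbow trout (Oncorhynchus mykiss). The 188 loci are the MSTRG rows whose mean over the 6 libraries was at least 20 FPKM (fragments counted per length of transcript and per depth of library), without the row named GPNMB and the row named Pnp. They were chosen from 4000 assembled loci among 43862 gene rows. Their abundance is therefore a description. The rule named no direction of change with age, but a locus low at 1 age could enter only through the other. For the 63 loci under 20 FPKM at 1 age, this set the direction of the change in mean FPKM and part of its size.

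Transcript assemblers join reads that overlap on a genome into loci and then set aside those that match an annotated gene. What is left can be a gene that the annotation missed, another copy of a known gene, a mobile element that is transcribed, an RNA that codes for no protein, or an untranslated stretch cut off from its gene. Salmonid fishes carry many duplicated genes from a genome duplication in their ancestry and many Tc1-like DNA transposons, so near-identical copies are common in their genomes.

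The libraries came from yellow mutant fish aged 1 day (3 libraries) and 90 days (3 libraries), all of dorsal skin, with no library of another colour type among them. The series set out to find genes of colour formation over 3 stages of development, of which 1 was not analysed here. Whether replicates are separate fish is not said in the labels, so p-values measure the spread between these libraries, which may be technical. Ages were compared by edgeR's quasi-likelihood test on the counts of all 29436 genes that passed a filter of FPKM 1 in 3 libraries, with Benjamini-Hochberg adjustment and a threshold of 0.05. "Rose", "fell", "higher" and "lower" below refer to day 90 against day 1 in that test unless FPKM is named.

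Total counts were 16157312 to 18960866 per library. Epidermal markers took 0.951 to 0.987% of counts at day 1 and 3.27 to 4.23% at day 90. Markers of other tissues moved with age as well: lens and retina markers took 0.328 to 0.42% at day 1 and 0.00354 to 0.00454% at day 90, liver and yolk markers 0.258 to 0.436% and 0.0438 to 0.0488%, and muscle markers 4.64 to 5.67% and 0.738 to 2.55%. The highest muscle share at day 90 was that of replicate 1, with 0.776% in replicate 2 and 0.738% in replicate 3. In such bulk libraries, fewer cells of a type and less RNA per cell cannot be told apart.

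Of the 188 loci, 170 carried a Description (90.4%), against 84.4% of all assembled loci and 99.5% of annotated genes at or above the same mean FPKM. The Description named a product for 158 loci, and 12 of the 170 read only as uncharacterized, hypothetical or otherwise unnamed proteins. The remaining 18 loci had none. The best match in the Description was to rainbow trout itself for 71 loci, to another salmonid for 71, to another fish for 21 and to an organism that is not a fish for 7. A gene symbol was given for 118 loci, a Gene Ontology term for 102 and a KEGG pathway for 57.

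The named products fell into 12 groups and a rest. RNA processing and RNA binding accounted for 20 loci, chromatin, transcription and cell cycle for 20, and mobile elements and virus-like proteins for 20. Protein folding, turnover and secretion followed with 18 loci, mitochondria and energy with 17, signalling, transport and metabolism with 17, and muscle and cytoskeleton with 11. Smaller groups were lens, retina and neural products with 7, epidermis, keratin and mucus with 6, ribosome and translation with 4, immune products with 4 and collagen and matrix with 3, and 11 loci had other names. Symbol and Description did not always name the same product: MSTRG.32619 had the symbol SINHCAF and a Description of a Tc1-like transposase, and MSTRG.41463 had the symbol CRYBB2 and a Description of beta-crystallin B1.

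At day 90, 97 of the 188 loci were higher (51.6%) and 39 were lower (20.7%), and 52 did not pass the test. Over all genes tested, 67.9% passed, 32.5% higher and 35.4% lower. Among the 3069 annotated genes of mean FPKM 20 or more, 73.3% passed, 53.5% higher and 19.8% lower, so the loci's shares lay near those of annotated genes of like abundance. The median log2 fold change was 0.39 over the loci, 0.40 over these annotated genes and -0.03 over all genes tested. At least a 2-fold rise was called for 48 loci and at least a 2-fold fall for 20, where annotated genes of like abundance reached 25.4% and 11.3% and all genes 16.2% and 22.6%. At least 10-fold changes were called for 12 loci upward and 6 downward, against 4.79% and 5.15% of these annotated genes and 1.93% and 9.29% of all genes. The FPKM of the ages did not overlap for 139 loci (73.9%), and for 75.2% of all genes.

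The split between higher and lower rested on the scaling of the libraries. TMM factors, which edgeR takes from the bulk of genes, were 1.11 to 1.17 at day 1 and 0.823 to 0.913 at day 90. With total counts alone, 61 loci were higher and 69 lower, against 20.2% and 50.6% of all genes tested, whose median was then -0.43. With factors from the epidermal markers, 20 loci were higher and 136 lower, against 5.92% and 82.2% of all genes, and that median was -1.46. The 39 loci that fell did so under all 3 scalings, and 20 of the 97 that rose did so under all 3. Both other scalings moved values downward, so they could hardly undo a fall, and these counts do not compare the firmness of falls and rises. With epidermal factors 45 of the 97 were lower, past the threshold, and 32 did not pass; among the 45 were cfl2 (1.06 with TMM factors, then -0.41), COX8B (0.91, then -0.50), ATOX1 (0.81, then -0.59), KRT8 (0.59, then -0.81) and MSTRG.43362 (0.91, then -0.52). Of the 97, 92 also had a higher mean FPKM at day 90 and 5 a lower one.

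Together the loci took a part of the libraries that differed between ages by less than the spread of replicates. Their summed counts were 2.22% ± 0.0204 of all counts at day 1 and 2.21% ± 0.0193 at day 90 (SD, n = 3 per age; two-sided exact permutation test, p = 0.7). All assembled loci together took 6.10% ± 0.0472 and 5.23% ± 0.251 (exact permutation p = 0.1, the smallest that 3 against 3 allows). Of the 188 loci, 125 had a mean of at least 20 FPKM at both ages, 28 were under 20 at day 1 and 35 under 20 at day 90. The 63 loci under 20 FPKM at 1 age entered through the other age and had to differ in mean FPKM, the more so the lower they were, so for these loci no adjusted p is given with a rise or fall. Among the 125 loci at or above 20 FPKM at both ages, 69 rose, 17 fell and 39 did not pass. Changes of at least 2-fold were called for 24 of them upward and 6 downward, and changes of at least 10-fold for 2 upward and none downward. Annotated genes of mean FPKM 20 or more were higher for 53.5% and lower for 19.8%, and at least 2-fold so for 25.4% and 11.3%. The shares for annotated genes at 20 FPKM or more at both ages were not taken, so these counts show no trait of the loci.

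**Figure D1:**
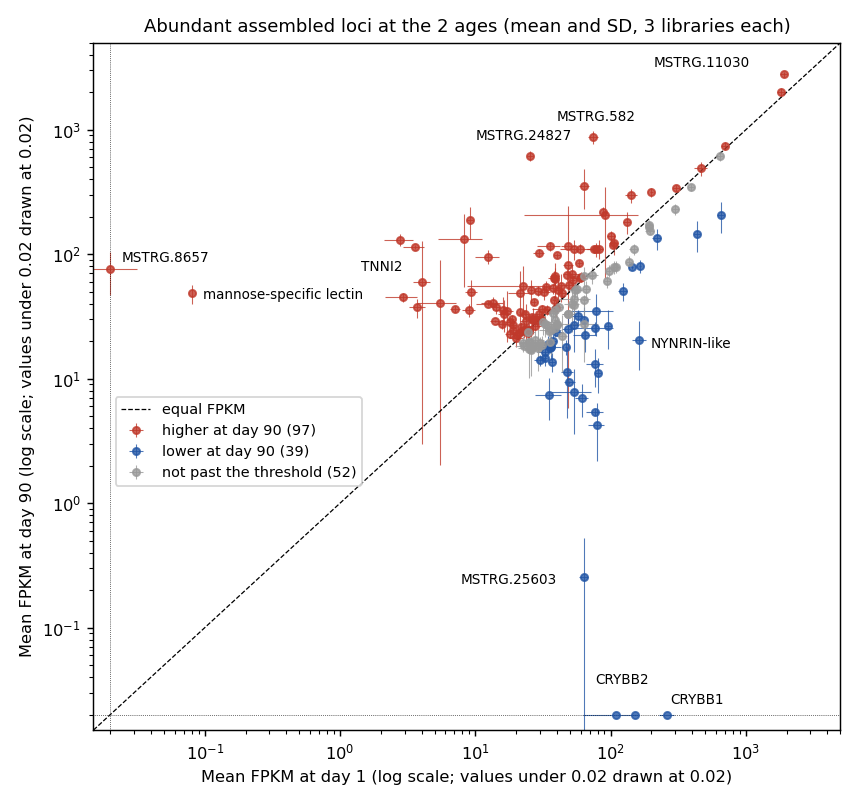
Mean FPKM of each of the 188 loci at day 1 (x axis) and day 90 (y axis), both on log scales, with SD over 3 libraries; red loci were higher, blue lower and grey not past the threshold in edgeR's test with TMM factors. Most loci lie within a few fold of the dashed line of equal FPKM, and CRYBB1 and CRYBB2 lie on the line drawn for values under 0.02 at day 90.

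The most abundant loci included several with no known product. MSTRG.11030, which had no Description and an implied length of 528 bases, was at 1830, 1861 and 2026 FPKM at day 1 and at 2787, 2919 and 2652 at day 90. The ages did not overlap, and its counts rose by a log2 fold change of 0.93 ± 0.14 (SE; edgeR adjusted p = 0.0003). With factors from the epidermal markers its value was -0.49, not past the threshold.

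MSTRG.27855, whose Description is the LOC400590 protein of human, was at 1735, 1776 and 1982 FPKM and then at 2144, 2042 and 1805. These ages overlapped. Its log2 fold change of 0.51 ± 0.16 passed (edgeR adjusted p = 0.015) but not without day 1 replicate 1, day 1 replicate 2 or day 90 replicate 2 (adjusted p = 0.062, 0.067 and 0.062), and with epidermal factors it was -0.90. MSTRG.14690, an uncharacterized protein named in Atlantic salmon (Salmo salar), was at 604, 643 and 674 FPKM and then 662, 641 and 550, overlapping between ages and not past the threshold (log2 fold change 0.34, edgeR adjusted p = 0.065; 0.018 without day 90 replicate 3).

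A further pair of unnamed loci moved from moderate to very high levels. MSTRG.582, with no Description, was at 73.5, 68.3 and 81.0 FPKM at day 1 and at 990, 794 and 838 at day 90. Every day 90 library stood far above every day 1 library, and the log2 fold change was 3.95 ± 0.18 (edgeR adjusted p = 1.3e-07). MSTRG.24827, an uncharacterized protein named in coho salmon (Oncorhynchus kisutch), went from 25.7, 23.8 and 26.4 FPKM to 571, 678 and 591, again with no overlap (log2 fold change 4.98 ± 0.15, adjusted p = 2.2e-08).

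Of the 30 loci that were uncharacterized or had no Description, 16 rose, 5 fell and 9 did not pass. With total counts 12 were higher and 6 lower, and with epidermal factors 8 were higher and 18 lower. Annotated genes of like abundance were higher for 53.5% with TMM factors, near the share of these loci, and lower for 19.8%. MSTRG.38849 and MSTRG.27282, both without a Description, rose from a mean of 9.15 ± 0.476 to 187 ± 54.2 FPKM and from 8.26 ± 2.95 to 133 ± 78.2 FPKM (SD, n = 3). MSTRG.27282 varied most within day 90, at 211, 54.9 and 134 FPKM, all above the 5.79 to 11.5 of day 1. Among the falls, MSTRG.6154 went from 73.1, 67.8 and 89.4 FPKM to 5.08, 5.45 and 5.65 (log2 fold change -3.46 ± 0.17). MSTRG.2671 went from 64.6, 63.1 and 33.3 FPKM to 3.20, 8.70 and 11.3 (log2 fold change -2.48 ± 0.38). The ages did not overlap for either. MSTRG.38849 and MSTRG.27282 entered only through day 90, and MSTRG.6154 and MSTRG.2671 only through day 1, so these directions were part of the choice.

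The widest rise was that of MSTRG.8657, an uncharacterized protein named in northern pike (Esox lucius). It had 1 count over the 3 day 1 libraries and 11788 over the 3 day 90 libraries, at 53.2, 65.3 and 108 FPKM. Scaled for library size and TMM factors, the ratio was 16200 with a 95% counting interval of 2900 to 638000. MSTRG.23786, named for mannose-specific lectin, a protein that binds the sugar mannose, had 3 counts at day 1 and 1747 at day 90. Its levels were 0.08 FPKM in each day 1 library and 41.3, 45.7 and 58.0 at day 90, a ratio of 798 (273 to 3870). Of the 4 immune loci, which include this lectin, 3 rose and 1 fell. With total counts 2 were higher and 1 lower, and with epidermal factors 1 was higher and 3 were lower. Among the rises, MSTRG.33948 was described as major histocompatibility complex class I-related but had the symbol jockey\pol (log2 fold change 0.47). Both MSTRG.8657 and MSTRG.23786 entered only through day 90, so a rise was part of the choice. Their intervals are exact binomial and cover counting error only.

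A pair of loci described as probable basic-leucine zipper transcription factor H, a class of DNA-binding regulators, rose in step. MSTRG.22588 went from 3.49, 2.66 and 2.16 FPKM to 114, 139 and 139 (log2 fold change 5.95 ± 0.18), and MSTRG.20410 from 3.83, 4.03 and 2.85 to 114, 121 and 112 (5.40 ± 0.16). Both were low in every day 1 library and high in every day 90 library, and at such day 1 levels a locus could be among the 188 only through a large rise.

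**Figure D2:**
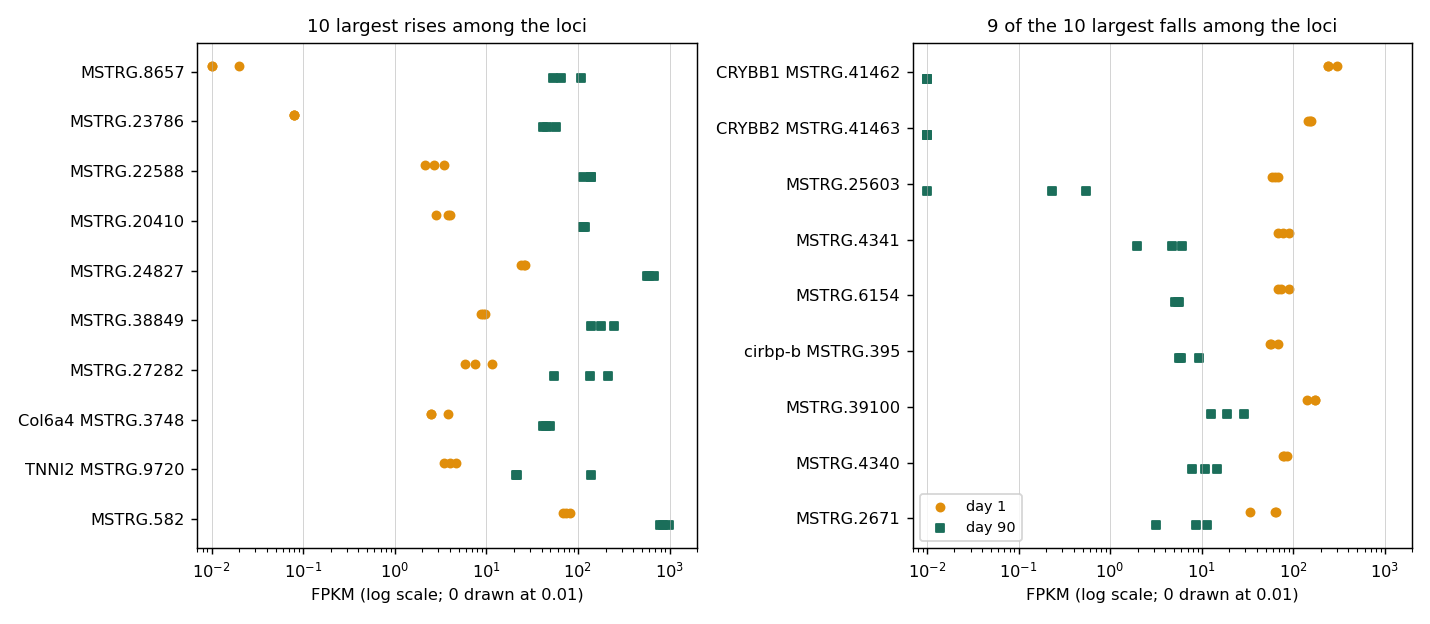
FPKM in each library (log scale, 0 drawn at 0.01) of the 10 loci with the largest rises (left) and 9 of the 10 with the largest falls (right) among those that passed the test and whose ages did not overlap; orange circles are day 1 and green squares day 90. Day 90 replicate 1 of TNNI2 MSTRG.9720, at 137 FPKM, stands apart from the other day 90 libraries, at 21.0 and 21.7.

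The deepest falls described here were in loci named for lens crystallins. MSTRG.41462 (CRYBB1) and MSTRG.41463 (CRYBB2), whose Descriptions both name beta-crystallin B1, a structural protein of the eye lens, carry neighbouring numbers in the assembly. MSTRG.41462 was at 297, 240 and 239 FPKM at day 1 and MSTRG.41463 at 152, 155 and 145. Neither had a count in any day 90 library, so that against a floor of 3 counts over the age they were at least 2900-fold and at least 972-fold lower. All 7 annotated rows of the same name or symbol as MSTRG.41462 also fell, and of the lens and retina markers tested 55 of 57 fell. The part of lens tissue in the day 1 libraries was not tested.

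Of the 7 lens, retina and neural loci, 5 fell and 2 rose. Each of the 7 had a mean under 20 FPKM at 1 age and entered only through the other. Its direction in mean FPKM was therefore part of the choice. MSTRG.906 (mdk), named pleiotrophic factor, a heparin-binding growth factor, went from 71.3, 68.8 and 89.1 FPKM to 8.09, 16.7 and 14.3 (log2 fold change -2.19 ± 0.23). MSTRG.15203 (dpysl3), a protein of growing axons, went from a mean of 49.6 to 9.35 FPKM (-2.03 ± 0.12), and MSTRG.5249 (GPM6B), a neuronal membrane glycoprotein, from 46.7 to 18.0 (-0.99 ± 0.11). MSTRG.4519 and MSTRG.2609, both named for myelin basic protein, which compacts the myelin sheath, rose by 1.57 ± 0.21 and 1.41 ± 0.22 on the log2 scale. Of the 44 neural markers tested, 39 fell and 1 rose, and their share was 0.273 to 0.312% at day 1 and 0.0574 to 0.062% at day 90; the part of nervous tissue was not tested.

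MSTRG.25603 was named for acid-sensing ion channel 1A, a proton-gated sodium channel. It was at 68.3, 58.2 and 62.7 FPKM at day 1 and at 0.54, 0.23 and 0 at day 90, with the day 90 libraries all near 0 (log2 fold change -7.43 ± 0.36). It was among the 188 only through its day 1 level, so a fall was part of the choice.

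Among the 20 mobile element and virus-like loci, 9 fell, 2 rose and 9 did not pass, with a median log2 fold change of -0.23. Their summed FPKM was 1633 at day 1 and 919 at day 90. With total counts alone, 16 fell and 1 rose, under a scaling that gave 50.6% of all genes tested as lower and 20.2% as higher. TMM factors gave 35.4% of all genes tested as lower and 32.5% as higher.

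The fall was greatest in the loci named for NYNRIN, a protein with an integrase-like part that comes from a retroviral element in mammals. These 6 loci summed to 437 ± 47.4 FPKM at day 1 and 87.8 ± 33.1 at day 90 (SD, n = 3), and 5 of the 6 fell. MSTRG.4341, MSTRG.26135, MSTRG.4340 and MSTRG.34577 were under 20 FPKM at day 90 (means 4.27, 7.37, 11.1 and 17.6). They were chosen only through their day 1 level, so a fall in mean FPKM was part of the choice and of the sum. MSTRG.39100 and MSTRG.32770 had means above 20 FPKM at both ages, and both fell. MSTRG.39100 went from 174, 175 and 141 FPKM to 12.5, 19.01 and 29.3 (log2 fold change -2.64 ± 0.26, edgeR adjusted p = 1.5e-05). MSTRG.4341 went from 90.0, 77.6 and 68.6 FPKM to 1.99, 4.73 and 6.10 (-3.84 ± 0.26), and its numbered neighbour MSTRG.4340 from 85.8, 76.9 and 79.3 to 10.8, 7.81 and 14.7 (-2.48 ± 0.19). For these 3 loci every day 90 library was below every day 1 library. MSTRG.26135 fell by 1.87 on the log2 scale. The call of MSTRG.32770 (-0.60) ended without any of 5 libraries, with adjusted p of 0.056 to 0.12, and held without day 90 replicate 3, where its value was -0.96. MSTRG.34577 did not pass (-0.18, adjusted p = 0.52), but passed without day 90 replicate 3, where its value was -0.54. Of the 3 annotated rows of that name that were tested, 1 fell, 1 rose and 1 did not pass, and the most abundant was the one that fell, by 1.06.

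Tc1-like transposase, spelled "transporase" in the table, is the enzyme that cuts and pastes Tc1-type DNA transposons, and 9 loci carried that name. They summed to 943 ± 57.9 FPKM at day 1 and 692 ± 87.6 at day 90. In edgeR's test with TMM factors 1 rose, 1 fell and 7 did not pass, with log2 fold changes of -0.33 to 0.37. With total counts alone 7 of the 9 fell and none rose, so their direction rests on the scaling. The most abundant of them, MSTRG.32761, was at 305, 314 and 280 FPKM and then at 203, 242 and 245, without overlap, and had a log2 fold change of 0.00 ± 0.11 with TMM factors and -0.40 with total counts. Both calls were lost when a library was left out: MSTRG.41000 (-0.33) was past the threshold only with all libraries or without day 90 replicate 3, and MSTRG.31974 (0.37) was not without day 1 replicate 1, day 1 replicate 2 or day 90 replicate 2.

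Of the other mobile element loci, MSTRG.22353, named for syncytin-1, an envelope protein of retroviral origin, went from 117, 119 and 133 FPKM to 51.5, 42.0 and 58.3 (log2 fold change -0.90 ± 0.14, edgeR adjusted p = 0.00037). The 2 loci named for the Pol polyprotein of a gypsy transposon, MSTRG.42765 and MSTRG.26598, fell by 0.57 and 0.66. MSTRG.26598 was under 20 FPKM at day 90 (mean 17.8), so a fall in mean FPKM was part of its choice. MSTRG.43362, named retrotransposon Gag-like protein 9, rose from 18.2, 19.6 and 19.5 FPKM to 26.0, 28.0 and 27.7 (0.91 ± 0.10). This locus was under 20 FPKM at day 1, so a rise in mean FPKM was part of its choice, and with epidermal factors it was lower.

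**Figure D3:**
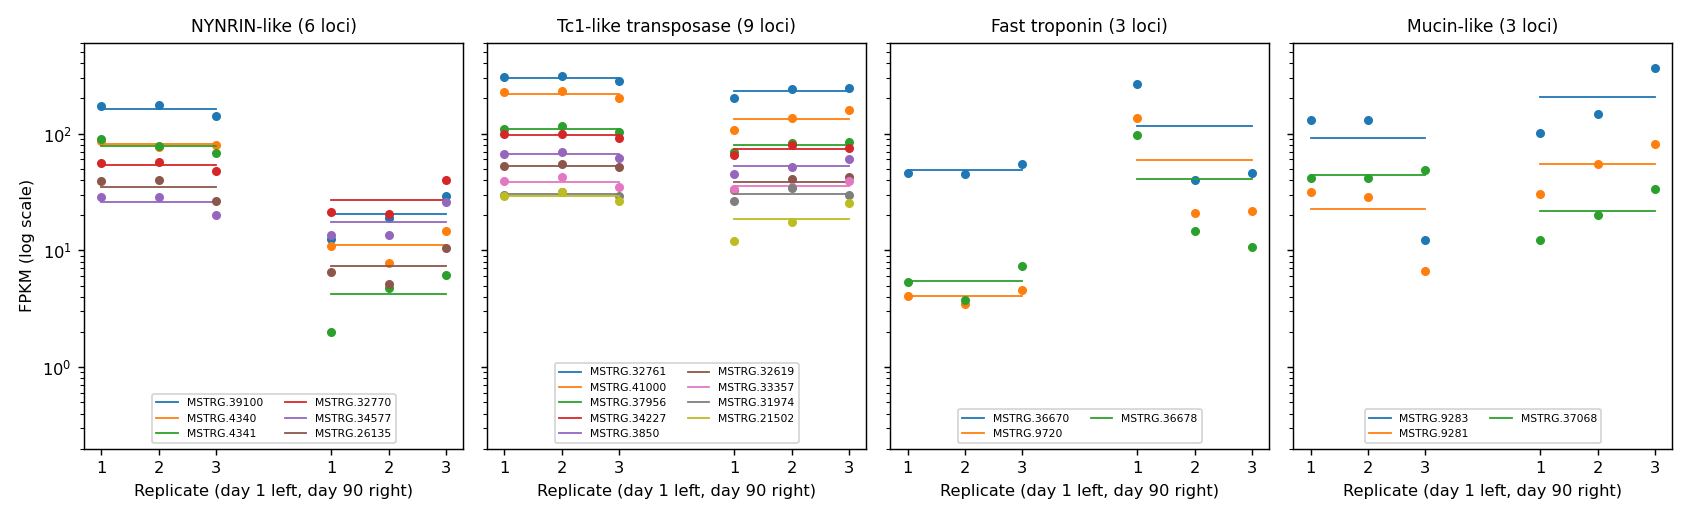
FPKM in each library (log scale) of the loci named for NYNRIN, Tc1-like transposase, fast troponin and mucin; each colour is 1 locus, points are libraries and lines the mean of 3 libraries of an age. The NYNRIN loci lie lower at day 90 for the most part, the Tc1-like loci have somewhat lower means there, the troponin loci are high in day 90 replicate 1, and 2 of the mucin loci are low in day 1 replicate 3.

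Among the 20 chromatin, transcription and cell cycle loci, 9 fell, 6 rose and 5 did not pass. With total counts 5 were higher and 13 lower, and with epidermal factors 2 were higher and 15 lower. Of all genes tested, 35.4% were lower with TMM factors, 50.6% with total counts and 82.2% with epidermal factors. Among annotated genes of like abundance, 19.8% were lower and 53.5% higher with TMM factors. Non-histone chromosomal protein H6, a nucleosome-binding protein of the HMGN family, was named for the abundant pair MSTRG.4431 and MSTRG.2520. MSTRG.4431 went from 613, 655 and 685 FPKM to 155, 195 and 266 (log2 fold change -1.29 ± 0.18, edgeR adjusted p = 0.00014), and MSTRG.2520 from 418, 430 and 460 to 108, 140 and 188 (-1.21 ± 0.18, adjusted p = 0.0002). Both loci were lower in every day 90 library, and their sum per library was 1031 to 1145 FPKM at day 1 and 263 to 454 at day 90. Loci for nucleophosmin (npm1, -1.04), a nucleolar chaperone of ribosome assembly, for DNA topoisomerase 1 (TOP1, -0.61), and for the nuclear phosphoprotein ANP32A (MSTRG.37382, -0.73, and MSTRG.9612, -1.16) fell as well. The npm1 and TOP1 loci were under 20 FPKM at day 90, so a fall in mean FPKM was part of their choice. The rises included XBP1, the transcription factor of the unfolded protein response, from 90.5, 88.5 and 86.1 FPKM to 215, 242 and 205 (1.70 ± 0.13), and cyclin G1 (CCNG1, 1.13 ± 0.12).

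Of the 20 RNA processing and binding loci, 6 rose, 4 fell and 10 did not pass, and without day 90 replicate 1 8 fell. With total counts 1 was higher and 11 were lower, and with epidermal factors none was higher and 19 were lower. Of all genes tested, 50.6% were lower with total counts and 82.2% with epidermal factors, so the split rests on the scaling. Loci of cirbp-b, a cold-inducible RNA-binding protein, differed among themselves. MSTRG.13052 was at 401, 368 and 410 FPKM and then at 368, 344 and 324 (log2 fold change 0.20, not past the threshold), and MSTRG.38375 at 291, 300 and 322 and then 360, 339 and 324 (0.55 ± 0.14, edgeR adjusted p = 0.006). In FPKM the ages stood narrowly apart in both, in opposite directions, and with total counts neither passed (-0.20 and 0.15). MSTRG.395 fell from 56.2, 57.6 and 68.7 FPKM to 9.43, 6.01 and 5.68 (-2.71 ± 0.23). This locus was under 20 FPKM at day 90, so a fall in mean FPKM was part of its choice. The 3 loci of the splicing factor SRSF2 also split with TMM factors, with MSTRG.19975 lower (-0.50) and MSTRG.31968 and MSTRG.34615 higher (0.51 and 0.47). The FPKM of MSTRG.31968 and MSTRG.34615 overlapped between ages. With total counts they did not pass (0.11 and 0.07), and with epidermal factors both were lower (-0.90 and -0.94).

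All 4 ribosome and translation loci were higher with TMM factors, none with total counts, and with epidermal factors all 4 were lower. Without 1 library the number higher was 1 in 4 of the 6 cases, 3 without day 1 replicate 3 and 4 without day 90 replicate 3. The ribosomal protein loci rpl10 (MSTRG.26243; 671, 673 and 740 FPKM, then 786, 748 and 687) and RPL23A (MSTRG.14985; 446, 429 and 523, then 550, 496 and 423) overlapped between the ages. Their log2 fold changes of 0.42 ± 0.15 and 0.46 ± 0.17 (edgeR adjusted p = 0.029 and 0.035) passed only with all libraries or with day 1 replicate 3 or day 90 replicate 3 left out. With epidermal factors they were -1.0 and -0.95. The locus for edf1, a transcriptional coactivator (MSTRG.6713, log2 fold change 0.36), passed with all libraries and without day 90 replicate 3, and missed the threshold without any other 1 library (adjusted p = 0.06 to 0.18).

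Of the 17 mitochondrial and energy loci, 12 rose, 2 fell and 3 did not pass, and 7 were higher and 3 lower with total counts. With epidermal factors none was higher and 13 were lower. Of annotated genes of like abundance, 53.5% were higher with TMM factors and 72.6% lower with epidermal factors. Epidermal factors gave 82.2% of all genes tested as lower. ATP synthase subunit delta (ATP5F1D) went from 128, 124 and 140 FPKM to 221, 171 and 152 (log2 fold change 0.86 ± 0.18), cytochrome c oxidase subunit 8B (COX8B) rose by 0.91 ± 0.13 and glutamate dehydrogenase (GLUD1) by 1.08 ± 0.11. The fall of the locus for GPI, glucose-6-phosphate isomerase of glycolysis, was from 45.0, 45.3 and 53.0 FPKM to 18.7, 6.10 and 9.33 (-1.66 ± 0.36). Day 90 replicate 1 was its highest day 90 library. The GLUD1 locus was under 20 FPKM at day 1 (mean 18.7) and the GPI locus at day 90 (mean 11.4). Their direction in mean FPKM was therefore part of the choice.

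Of the 18 loci for protein folding, turnover and secretion, 15 rose, 1 fell and 2 did not pass. With total counts 9 were higher and 2 lower, and with epidermal factors none was higher and 12 were lower. Annotated genes of like abundance were 53.5% higher with TMM factors and 72.6% lower with epidermal factors. OST4, a small subunit of the enzyme that attaches N-glycans in the endoplasmic reticulum, went from 40.5, 41.8 and 38.2 FPKM to 93.0, 98.9 and 101 (log2 fold change 1.67 ± 0.09, edgeR adjusted p = 5.2e-07). GOLT1B, of vesicle transport to the Golgi, rose by 1.44 ± 0.10, kdelr3, the receptor that returns resident proteins to the endoplasmic reticulum, by 1.19 ± 0.12, and creld2 by 1.19 ± 0.13. The ages did not overlap for any of these 4. GOLT1B and kdelr3 were under 20 FPKM at day 1 (means 13.9 and 15.8), so a rise in mean FPKM was part of their choice.

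**Figure D4:**
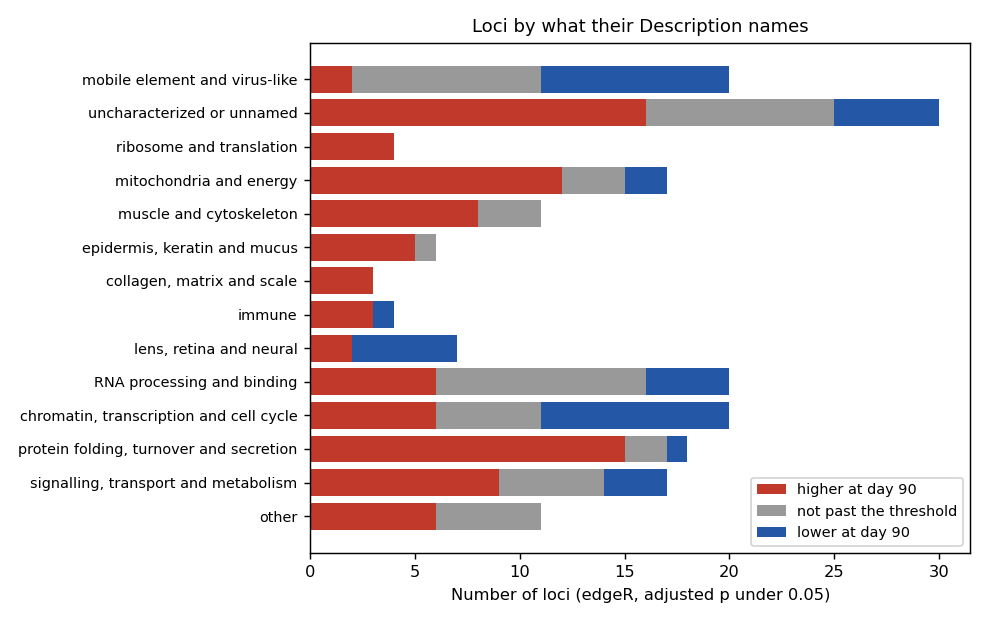
Number of loci in each group of product names (x axis) that were higher (red), not past the threshold (grey) or lower (blue) at day 90 in edgeR's test with TMM factors; the uncharacterized bar holds the 18 loci with no Description. Folding and secretion loci are mostly red (15 of 18). The largest blue parts are 9 loci each for mobile elements and for chromatin. The uncharacterized bar and lens, retina and neural products follow with 5 each, and other groups have smaller blue parts.

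Of the 11 muscle and cytoskeleton loci, 8 rose and 3 did not pass. With total counts 6 were higher and 2 lower, and with epidermal factors 3 were higher and 5 lower. Among annotated genes of like abundance, 53.5% were higher and 19.8% lower with TMM factors, and 72.6% were lower with epidermal factors. The loci of the fast troponins, which switch contraction of white muscle, were highest in day 90 replicate 1, and the size of their rises rested largely on it. TNNI2 MSTRG.9720 was at 4.04, 3.47 and 4.61 FPKM at day 1 and at 137, 21.0 and 21.7 at day 90. TNNI2 MSTRG.36678 was at 5.35, 3.79 and 7.28 and then at 96.7, 14.6 and 10.8. TNNT3 MSTRG.36670 was at 45.7, 45.2 and 55.3 and then at 265, 40.1 and 46.3. In each the first day 90 library was far above the other 2, and only the TNNI2 loci kept the ages apart. Both TNNI2 loci were under 20 FPKM at day 1, so a rise in mean FPKM was part of their choice. Without day 90 replicate 1, the log2 fold changes went from 4.33 to 2.73 for MSTRG.9720, from 3.34 to 1.55 for MSTRG.36678 and from 1.70 to 0.15 for MSTRG.36670 (edgeR adjusted p = 0.33 for the last), and 6 of the 11 loci rose. Both TNNI2 loci stayed past the threshold without it, and TNNT3 did not. TNNT3 also missed the threshold without any 1 of the day 1 libraries (adjusted p = 0.092 to 0.11). Of the muscle markers tested, 54 of 96 fell and 20 rose; the part of muscle tissue in replicate 1 was not tested.

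Among the cytoskeletal loci, thymosin beta-4 (Tmsb4x), which holds actin monomers, went from 194, 201 and 206 FPKM to 293, 343 and 310 (log2 fold change 1.04 ± 0.12, edgeR adjusted p = 4.2e-05). The protease calpain-2 (CAPN2) went from 40.3, 38.7 and 27.6 FPKM to 107, 116 and 126 (2.1 ± 0.15) and cofilin-2 (cfl2), which severs actin filaments, from 39.6, 37.2 and 40.2 to 43.5, 60.8 and 85.5 (1.06 ± 0.19). The ages did not overlap for any of the 3.

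Of the 6 epidermis, keratin and mucus loci, 5 rose and 1 did not pass, and 2 were higher and 1 lower with total counts. With epidermal factors none was higher and 4 were lower. Beside these, 53.5% of annotated genes of like abundance were higher with TMM factors and 72.6% lower with epidermal factors. Mucins are the gel-forming glycoproteins of fish skin mucus. The mucin-2 locus MSTRG.9283 was at 130, 131 and 12.2 FPKM at day 1 and at 100, 148 and 365 at day 90, so the ages overlapped. Day 1 replicate 3 was low and day 90 replicate 3 high, and the log2 fold change of 1.71 ± 0.62 (edgeR adjusted p = 0.033) was 1.1 without the latter (adjusted p = 0.14) and 1.24 without the former (adjusted p = 0.036). Without day 90 replicate 2 it also missed the threshold (adjusted p = 0.054). MSTRG.9281, an intestinal mucin-like protein, was low in the same day 1 library (31.9, 28.9 and 6.70 FPKM, then 30.3, 54.4 and 81.5; log2 fold change 1.68 ± 0.48). The other mucin locus, MSTRG.37068 (Muc2), was at 41.7, 41.3 and 48.6 FPKM and then at 12.2, 20.1 and 33.4, and did not pass (-0.64, adjusted p = 0.066; 0.0016 without day 90 replicate 3). The locus for thread biopolymer filament subunit gamma, an intermediate filament known from hagfish slime threads, was at 115, 103 and 99.7 FPKM and then at 146, 119 and 101 (KRT8; 0.59 ± 0.17); it missed the threshold without day 1 replicate 2 and gave 0.37 without day 90 replicate 1. A pair of natterin-like loci (aep1), named after toxins of a venomous fish, rose by 0.82 and 0.61.

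The 3 collagen and matrix loci all rose, under both TMM factors and total counts. With epidermal factors 2 were higher, and FKBP10 did not pass (-0.49). Col6a4 MSTRG.3748, a chain of the collagen VI that forms beaded filaments around cells, went from 2.49, 2.48 and 3.83 FPKM to 45.2, 49.1 and 41.5 (log2 fold change 4.33 ± 0.21). MXRA8 rose by 2.09 ± 0.15, and FKBP10, a chaperone of collagen folding in the endoplasmic reticulum, by 0.92 ± 0.13. For all 3 loci the ages did not overlap. Col6a4 and MXRA8 were under 20 FPKM at day 1 (means 2.93 and 12.3), so a rise in mean FPKM was part of their choice.

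Of the 17 signalling, transport and metabolism loci, 9 rose, 3 fell and 5 did not pass, and without day 90 replicate 3 5 fell. With total counts 7 were higher and 5 lower, and with epidermal factors 1 was higher and 11 were lower. With TMM factors 53.5% of annotated genes of like abundance were higher and 19.8% lower, so this group lay near them. With epidermal factors 72.6% of those genes were lower. Metallothionein B (MSTRG.3028), which binds zinc and copper, went from 8.20, 10.02 and 9.60 FPKM to 39.1, 47.9 and 62.8 (log2 fold change 2.80 ± 0.17), and the transferrin receptor (TFRC), which takes up iron, from 14.3, 15.3 and 13.2 to 42.9, 33.96 and 35.8 (1.79 ± 0.15). Both were under 20 FPKM at day 1, so a rise in mean FPKM was part of their choice. Betaine-homocysteine methyltransferase (bhmt), of methionine synthesis, went from 136, 131 and 158 FPKM to 263, 290 and 336 (1.44 ± 0.14). The copper chaperone ATOX1 rose by 0.81 ± 0.17 and glutathione peroxidase 4b (GPX4), which reduces lipid peroxides, by 1.15 ± 0.15.

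Several loci shared a product name: 20 names covered 53 of the 188. With TMM factors all loci of 6 names rose, all loci of 4 names fell, and 2 names (Tc1-like transposase and SRSF2) had calls in both directions. With total counts no locus of these 2 names was higher.

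An annotated row of the same product name or symbol was found for 114 of the loci, and the most abundant such row was tested for 111. Some pairs shared only a symbol and differed in Description, so they need not be copies. The tc1a loci, for example, stood beside a row described as zinc finger protein 585B-like, at a mean of 3.65 FPKM at day 1. Of the 111, 34 rose with their annotated namesake and 15 fell with it. Calls were opposite for 12, with 5 loci higher and their namesake lower and 7 the other way round. For 14 neither passed and for 36 only 1 of the pair did. The locus was above its most abundant namesake at both ages for 57 of 114 and below it for 40. Several loci could stand beside the same annotated row, as the NYNRIN and cirbp-b loci did, so these pairs are not separate comparisons. How the reads of near-identical copies were shared out is stated in no source used here, so the level of each copy is uncertain.

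The opposite pairs included muscle, stress and RNA-binding genes. Both TNNI2 loci were under 20 FPKM at day 1, and MSTRG.395 and the GPI locus were under 20 FPKM at day 90. The direction of these loci was therefore partly set by the choice, and the TNNI2 levels were highest in day 90 replicate 1. The most abundant annotated TNNI2 row was at 565, 540 and 674 FPKM at day 1 and at 129, 69.9 and 78.8 at day 90 (log2 fold change -2.28 ± 0.26, edgeR adjusted p = 4.5e-05), while both TNNI2 loci rose. Of the 14 annotated rows tested under that name, 9 fell and 2 rose. The most abundant of 4 annotated TNNT3 rows, of which 2 fell and 1 rose, went from 1082, 1190 and 1395 FPKM to 507, 158 and 158 (-1.74 ± 0.45), again with its highest day 90 value in replicate 1. The locus MSTRG.15096 named nuclear protein 1, a stress-induced chromatin protein, fell from 99.2, 90.1 and 97.1 FPKM to 18.2, 25.1 and 36.2 (-1.48 ± 0.19, adjusted p = 8.6e-05), and the annotated Nupr1 row rose from 39.1, 44.6 and 40.4 to 55.3, 75.2 and 73.8 (1.1 ± 0.12, adjusted p = 3.4e-05). The ages were apart in both rows, in opposite directions. The annotated cirbp-b row, at 1968, 1914 and 2083 FPKM and then 2273, 2386 and 2201, rose by 0.59 where MSTRG.395 fell by 2.71. For GPI the more abundant of the 2 annotated rows rose by 0.46, the other fell, and the locus fell by 1.66.

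The locus MSTRG.11438, named fibroin heavy chain-like, rose from 3.86, 3.17 and 4.13 FPKM to 30.8, 37.6 and 43.7 (log2 fold change 3.70 ± 0.16), and the 1 annotated row of that name that was tested fell from 38.5, 37.7 and 21.0 to 0.25, 0.66 and 0.53. Like MSTRG.3748 below, MSTRG.11438 entered only through its day 90 level, so a rise was part of the choice. In other pairs the size differed more than the direction: the 2 natterin-like loci rose by 0.82 and 0.61, and the most abundant annotated row of that name rose by 6.94, from 1.08, 0.75 and 0.86 FPKM to 81.6, 65.3 and 102; of the 3 such rows tested, 1 rose and 1 fell. MSTRG.3748 rose by 4.33, and of 3 annotated rows of that name 2 rose and the most abundant, Col6a6 at 4.17 to 6.80 FPKM in all 6 libraries, did not pass (0.47, edgeR adjusted p = 0.07).

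**Figure D5:**
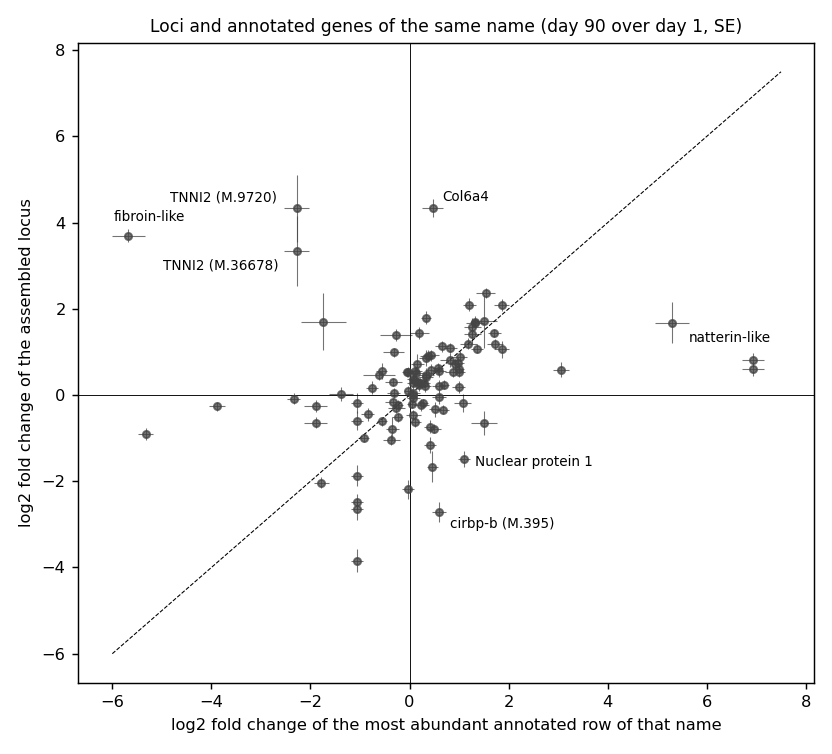
Log2 fold change of each locus (y axis) against that of the most abundant annotated row of the same name or symbol (x axis), with SE, for 107 pairs; pairs whose locus had 3 or fewer counts at an age are left out, and the dashed line marks equal change. TNNI2 and fibroin-like loci lie at the upper left, and nuclear protein 1 and cirbp-b MSTRG.395 at the lower right.

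The loci were about as long as annotated genes of like abundance. The length implied by count and FPKM had a median of 1546 bases (quartiles 773 and 2537), against 1625 (1058 and 2381) for the annotated genes. It differed by at least 10% between libraries for 9 of the 182 loci that had FPKM 1 or more in all of them. Between ages it differed by at least 10%, without overlap, for 3 (1.65%). That share was 0.861% over all genes tested with a mean FPKM of at least 1 at both ages. Over assembled loci under a mean FPKM of 20, with the same minimum, it was 1.68%, near that of the loci. For bub3 MSTRG.1496, a mitotic checkpoint protein, the implied length was 977 to 1231 bases at day 1 and 1429 to 1547 at day 90. Its FPKM fell from 38.9, 32.6 and 35.7 to 23.7, 18.2 and 17.6, while its counts did not change past the threshold (log2 fold change 0.01). For such loci FPKM and counts do not measure the same change. The day 90 mean of bub3 MSTRG.1496 was 19.8 FPKM, under 20, so its fall in mean FPKM was part of the choice.

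Just inside the abundance threshold lay LIMS1 MSTRG.28507 (mean 20.58 FPKM), MSTRG.11438 (20.54) and ARL6IP1 MSTRG.22570 (20.47). Just outside lay ap2m1 MSTRG.37486 (19.94), cirbp-b MSTRG.396 (19.92) and EXOSC10 MSTRG.14351 (19.88). In the authors' deposited table, 138 of the 188 loci had an FDR under 0.05, 91 higher and 47 lower. Of the loci past the threshold there and in edgeR's test, 129 had the same direction and 4 the opposite direction in the authors' deposited table, whose log2 values were a median of 0.39 below edgeR's (-0.39).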

How the data were processed

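Total RNA of dorsal skin was sequenced in 3 libraries at day 1 and 3 at day 90, grouped by the ages in the sample titles. The authors deposited 1 table with a count and an FPKM value per gene and library, and with log2 fold changes, p-values and FDR of their own comparison, per the file headers. The submitters' processing notes list TopHat2 2.1.1 and Bowtie2 2.2.8. The assembler, counting tool, genome build, strand setting and treatment of reads with several matches are stated in no source used here; MSTRG is the default prefix of the StringTie assembler. No coordinates or sequences of the loci were used here.

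Counts were tested with edgeR 4.0.16 (TMM, quasi-likelihood, R 4.3.3) over all 29436 genes with FPKM of at least 1 in at least 3 of 6 libraries, which all 188 loci passed. Alternatives were DESeq2 1.42.0, limma 3.58.1 on log2(FPKM + 1) and log2(FPKM + 0.1), other scalings and filters, a replicate block, other abundance thresholds and each library left out. SE is the log2 fold change divided by the root of F. Implied length is count divided by FPKM and total count. The scripts were tested on simulated counts. Loci were named by rule: the 12 most abundant, the 10 largest rises and falls that passed with ages apart, and the 3 on either side of the threshold, with others by role. A locus that the rule names is not reported here. Members and lists were chosen with earlier results of these data known. Product groups were written after the Descriptions were seen, in another order than planned, and a few marker matches of unrelated genes were removed after they were seen. Total counts were 16157312 to 18960866, so that 3 counts, the floor used, are 1.58e-05 to 1.86e-05% of a library. Floors and intervals cover counting error only.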

Additional observations from a re-analysis of the deposited data

How the results depend on the processing

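Calls depended most on scaling. With total counts alone 61 loci were higher, 69 lower and the median log2 fold change was 0.00, and of all genes 5941 were higher. With epidermal factors these were 20, 136 and -1.05, with 1743 of all genes higher and 24206 lower. On log2(FPKM + 1) limma gave 62, 70 and -0.03 and on log2(FPKM + 0.1) 61, 70 and -0.03, with 6084 and 5989 of all genes higher. A filter of FPKM 5 gave a median of 0.24 and, of fewer genes tested, 4706 higher and 5036 lower. A mean of at least 10 FPKM (405 loci) gave 188, 105 and 0.27, and of at least 50 (72 loci) 41, 13 and 0.53. Median-of-ratios and upper-quartile factors, DESeq2, no filter and a median of 20 FPKM (187 loci) kept each count within 1.5 times.

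Without 1 library, 84 to 96 loci were higher, 34 to 46 lower and the median 0.31 to 0.41; of all genes 8428 to 9242 were higher and 9434 to 10714 lower. Of the 136 calls, 117 held without any 1 library.

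With epidermal factors 45 of the 136 calls passed in the opposite direction and 21 more turned without passing. Signs turned for some named loci. With total counts these were MSTRG.14690 (-0.06), MSTRG.13052 (-0.20) and MSTRG.28507 (-0.35). With epidermal factors they were MSTRG.11030 (-0.49), MSTRG.27855 (-0.90), MSTRG.26243 (-1.0), MSTRG.14690 (-1.08), MSTRG.14985 (-0.95), MSTRG.13052 (-1.22), MSTRG.38375 (-0.87), MSTRG.28507 (-1.37) and MSTRG.22570 (-0.69). With limma at a pseudocount of 1 and 0.1 they were MSTRG.14690 (-0.06, -0.06), MSTRG.13052 (-0.19, -0.19) and MSTRG.28507 (-0.32, -0.33). MSTRG.28507 was -0.03 with upper-quartile factors and -0.11 with the filter of FPKM 5, and MSTRG.32761 was 0.04 with no filter. Without 1 library MSTRG.28507 ranged from -0.05 to 0.11 and MSTRG.32761 from -0.06 to 0.03. The cause was not tested.

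Same-numbered libraries did not deviate together from the means of their ages (r = -0.08858, 0.004114 and -0.123). With 3 libraries per age, such values cannot show whether the numbers pair them. With the replicate block, 86 loci were higher and 38 lower, with a median of 0.38, and 13 of the 136 calls were lost. Depth limits the loci with 3 or fewer counts at an age, whose folds are bounds or carry wide counting intervals.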

Other observations

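Of the 11 loci with other names, 6 rose and 5 did not pass. Among them, MSTRG.35670, named glutamine-rich protein 2, went from 27.9, 27.5 and 32.4 FPKM to 97.2, 111 and 97.9 (log2 fold change 2.18 ± 0.13, edgeR adjusted p = 6.8e-07), with every day 90 library above every day 1 library. VWA5A MSTRG.38107, of the von Willebrand factor A domain proteins, went from 8.55, 9.99 and 8.19 FPKM to 30.8, 39.3 and 35.8 (2.37 ± 0.12). This locus was under 20 FPKM at day 1, so a rise in mean FPKM was part of the choice. MSTRG.3112, with no Description, rose from 58.4, 69.8 and 63.4 FPKM to 284, 285 and 499 (2.86 ± 0.22), with day 90 replicate 3 apart from the other 2.

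MSTRG.9775, named extensin-like, showed the widest spread of implied length, from 410 to 1335 bases over the 6 libraries. Its mean FPKM was 63.2 at day 1 and 27.6 at day 90, a log2 ratio of -1.19, while its counts gave -0.65 with total counts and -0.26 with TMM factors, not past the threshold (edgeR adjusted p = 0.062; 0.027 without day 90 replicate 2). The implied length of the mucin locus MSTRG.9283 was 456 to 740 bases, and its longest value was in day 1 replicate 3, the library with the least of it.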
